A study of Rattus norvegicus with 8 samples.

Results

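Cytochrome P450 genes that oxidise drugs, steroids, retinoids and fatty acids were examined in rat liver, with iron-deficient animals compared with animals on a control diet. The members were the probe sets carrying exactly 1 platform gene symbol made of Cyp, a family number and a subfamily letter. Cyp51, Cyp7a1, Cyp8b1, Cyp27a1 and the Cyp4a genes were left out, since they serve sterol, bile acid and PPAR alpha pathways. Where a gene had several probe sets, the one that read highest on average over the 8 arrays stood for it. This gave 51 P450 genes, from 57 probe sets, among 14217 named genes, and 7 further P450 genes were left out by the rule. Another 7 P450 probe sets carried several symbols, Cyp2b1, Cyp2b2, Cyp2d1 and Cyp2d5 among them, and no gene was named from these. The rule for members used gene names and mean level, not the difference between the diets, but it was set with earlier results of these data known.

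All 8 livers came from male rats of the outbred Sprague-Dawley strain, 7 weeks of age, with 1 Affymetrix array per liver. The 4 iron-deficient livers were from rats given an AIN93G-type diet with its ferric citrate left out, and the 4 control livers from rats given the same diet with ferric citrate. Per the labels, the rats were killed on day 17, with 1.5 h of access to food beforehand, when blood hemoglobin was 42% of the control level. The labels call the arrays of a group biological replicates and name no batch.

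A P450 is a heme protein, in which an iron atom held by a cysteine binds and activates oxygen. In the endoplasmic reticulum the electrons come from the reductase Por, helped by cytochrome b5, and in mitochondria from ferredoxin. Families 1 to 3 hold most drug-oxidising forms of liver. Their genes are controlled by the receptors Ahr, Nr1i3 (CAR) and Nr1i2 (PXR), and in the rat several are set by the male or female pattern of growth hormone release.

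For the members whose diet groups did not overlap on the arrays, the RefSeq promoter table (build GRCr8) held 5 promoters, each running from 250 bases before to 50 bases after the gene start. They are shown because their genes had groups that did not overlap. Cyp2a2, Cyp2c6v1 and Cyp4v3, all higher without overlap, had no promoter in the table, so Cyp1a2 is the only higher gene shown. Capitals mark 3 motifs searched on both strands. These were GCGTG, the core bound by the aryl hydrocarbon receptor, ACGTG, the core bound by hypoxia-inducible factors, and AGGTCA, a nuclear receptor half-site. The first 2 motifs differ in 1 letter only and were counted apart. The windows are chr8:66978100-66978399 on the minus strand for Cyp1a2, chr1:91543518-91543817 on the plus strand for Cyp2f4, chr5:134393067-134393366 on the minus strand for Cyp4b1, chr7:12708329-12708628 on the minus strand for Cyp4f6 and chr1:91575260-91575559 on the plus strand for Cyp2t1.
Cyp1a2: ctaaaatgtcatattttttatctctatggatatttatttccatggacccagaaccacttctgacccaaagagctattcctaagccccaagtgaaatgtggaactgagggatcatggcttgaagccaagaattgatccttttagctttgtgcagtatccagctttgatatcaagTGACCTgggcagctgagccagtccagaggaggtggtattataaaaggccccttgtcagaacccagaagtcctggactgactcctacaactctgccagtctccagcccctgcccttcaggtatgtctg
Cyp2f4: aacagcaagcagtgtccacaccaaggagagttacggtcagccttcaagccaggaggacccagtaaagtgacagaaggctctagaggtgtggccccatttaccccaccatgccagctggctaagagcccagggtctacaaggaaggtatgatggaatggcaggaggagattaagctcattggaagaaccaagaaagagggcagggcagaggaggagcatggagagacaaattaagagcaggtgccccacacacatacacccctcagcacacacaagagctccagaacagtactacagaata
Cyp4b1: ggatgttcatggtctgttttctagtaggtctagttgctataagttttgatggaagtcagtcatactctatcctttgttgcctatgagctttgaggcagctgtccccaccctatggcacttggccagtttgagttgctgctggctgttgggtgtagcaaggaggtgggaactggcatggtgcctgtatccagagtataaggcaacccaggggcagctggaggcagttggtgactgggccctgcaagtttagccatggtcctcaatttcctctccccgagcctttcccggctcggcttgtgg
Cyp4f6: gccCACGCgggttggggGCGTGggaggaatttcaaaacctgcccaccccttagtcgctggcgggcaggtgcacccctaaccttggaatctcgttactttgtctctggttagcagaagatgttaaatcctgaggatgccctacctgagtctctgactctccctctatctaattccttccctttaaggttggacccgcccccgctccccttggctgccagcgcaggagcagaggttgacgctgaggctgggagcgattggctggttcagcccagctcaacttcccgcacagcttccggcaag
Cyp2t1: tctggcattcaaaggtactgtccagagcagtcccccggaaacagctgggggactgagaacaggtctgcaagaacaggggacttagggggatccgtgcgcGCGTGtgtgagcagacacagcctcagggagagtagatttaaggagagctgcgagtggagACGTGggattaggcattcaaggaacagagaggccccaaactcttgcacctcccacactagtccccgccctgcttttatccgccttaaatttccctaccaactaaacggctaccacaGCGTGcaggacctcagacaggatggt

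Of the 51 members, 41 had a promoter in the table. GCGTG occurred in 11 of these (26.8%), against 31.1% of 27457 rat promoters of the same length, and ACGTG in 7 (17.1%), against 19.7%. The half-site AGGTCA occurred in 14 (34.1%), against 15.7% of all promoters. The Cyp1a2 window held a half-site on the opposite strand and neither core. The windows of Cyp2f4 and Cyp4b1 held none of the 3 motifs. The Cyp4f6 window held GCGTG on each strand, and the Cyp2t1 window held GCGTG at 2 places and ACGTG at 1. These are matches of letters, and no binding was measured.

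The arrays were deposited on a log2 scale, with array medians from 7.1199 to 7.1207. Differences between arrays are compressed unequally across probe sets, so a deposited difference is not a fold change and its size cannot be compared between genes. The within-group SD of the members ran from 4.7e-08 for Cyp2c11 to 0.148 for Cyp2c12, with a median of 2.25e-05, against a median of 8.72e-06 over all named genes. Each difference is therefore given with its SE from limma and as a standardised difference, in units of the within-group SD of its probe set. Limma draws this SE towards the spread of all probe sets, so for the least variable ones it exceeds their own SD. Tfrc, the transferrin receptor gene, read 11.0161 to 11.0216 in iron-deficient livers and 10.9797 to 10.9824 in control livers. Hamp, the hepcidin gene, read 6.98, 10.58, 6.99 and 6.93 in iron-deficient replicates 1 to 4 and 15.991 to 16.099 in control livers, so iron-deficient replicate 2 stood apart. The hepatocyte genes Alb, Apoa1, Ttr and Hnf4a had means from 12.76 to 15.002 in both groups.

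No P450 gene passed the threshold of 0.05 for the limma p adjusted over 31042 probe sets, where 0.0422% of all named genes passed. At an unadjusted limma p under 0.05 there were 4 members higher and 6 lower in iron-deficient livers. That is 7.84% and 11.8% of the members, where the same threshold took 5.74% and 7.50% of all named genes, or 13.2% in both directions. The groups did not overlap for 8 members (15.7%), 4 higher and 4 lower in iron deficiency, against a background of 7.82%, made up of 3.42% higher and 4.40% lower. The median standardised difference of the 51 genes was -0.183, against -0.0727 over all named genes, and the median of its absolute value was 0.680 against 0.687. Of the members, 20 had a higher and 31 a lower mean in iron-deficient livers, where 47.0% and 53.0% of all named genes did. That split depended on scaling, with 43 higher and 8 lower after median centring, which adds 5.06e-05 to every difference. It was 26 and 23 after quantile normalization, and 5 and 28 where that step left Hamp aside, the other 18 members then having equal means. Under all 3 scalings 8 members kept their direction, namely Cyp1a2, Cyp2a1 and Cyp3a9, which were higher, and Cyp2f4, Cyp2t1, Cyp4b1, Cyp2c12 and Cyp17a1, which were lower. The direction of every other member turned or vanished under at least 1 of them.

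**Figure D1:**
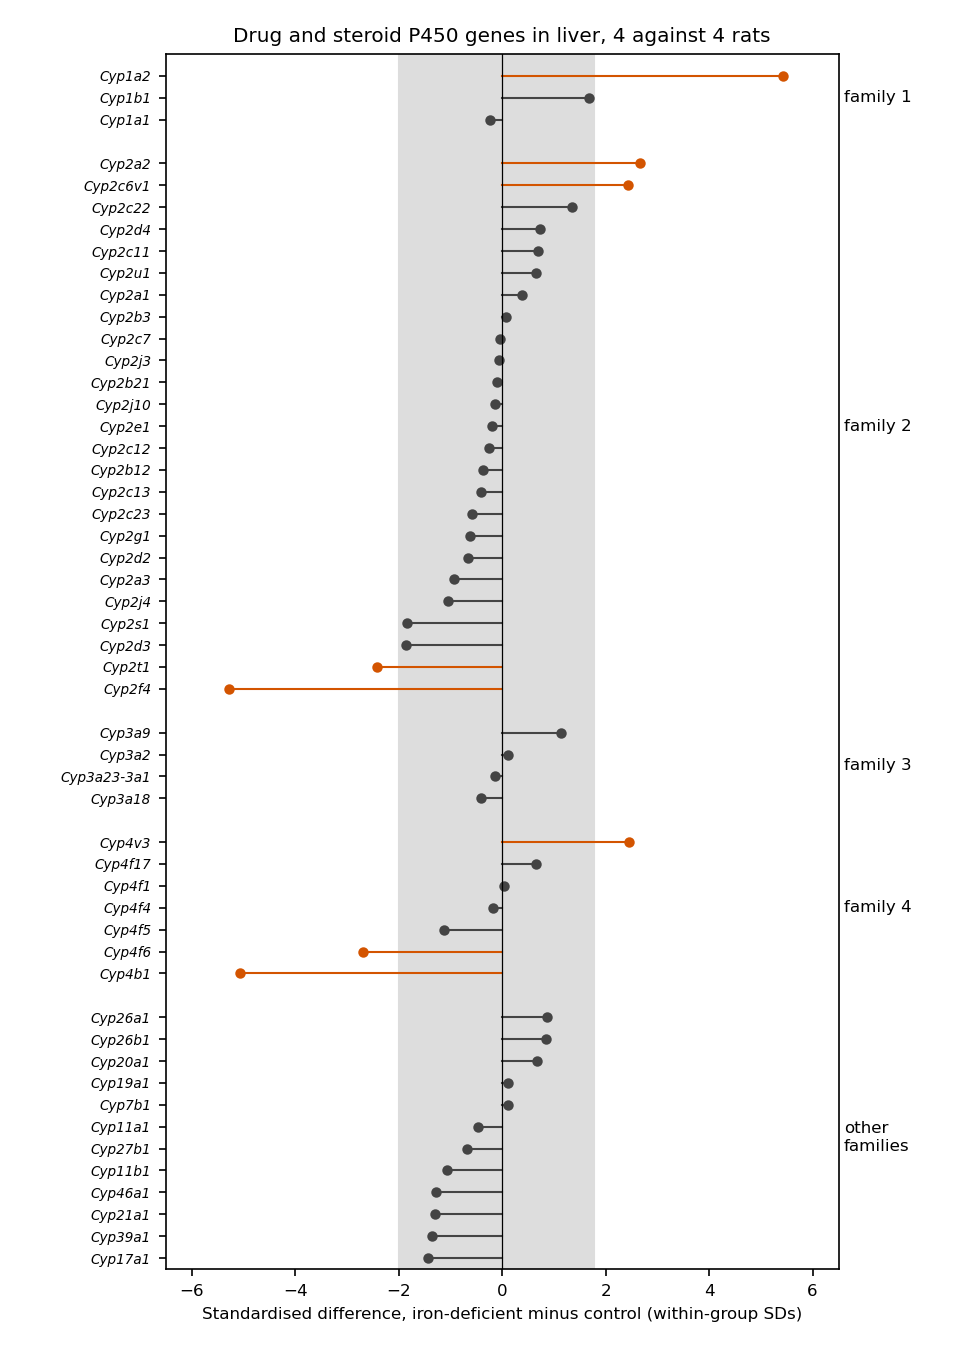
Standardised difference (iron-deficient minus control, in within-group SDs) of each of the 51 P450 genes, ordered within family, with 4 arrays per group. Orange marks the 8 genes whose groups did not overlap, and the grey band spans the 5th to 95th percentile of all named genes (-1.99 to 1.77). Cyp1a2 lies farthest to the right at 5.43, and Cyp2f4 and Cyp4b1 farthest to the left at -5.28 and -5.06.

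Family 1 had 3 members. Cyp1a2, the caffeine-oxidising form of liver and a target of the aryl hydrocarbon receptor, read 11.6237, 11.6195, 11.6244 and 11.6244 in iron-deficient livers, against 11.6033, 11.5977, 11.6086 and 11.6046 in control livers. All 4 iron-deficient livers lay above the highest control. The difference was 0.0194 ± 0.00242 (SE, n = 4 per group, limma), or 5.43 within-group SDs, which ranked 39 of 14217 by absolute size. The adjusted limma p of Cyp1a2 was 0.0735, and over 18 alternatives it ran from 0.00121 to 0.221. It passed after quantile normalization (limma adjusted p = 0.00204), also where Hamp was not part of that step (0.0473), and after median centring (0.00121). It also passed with the mean of all probe sets of each gene (0.0489), where fewer features are tested.

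Cyp1a1, its neighbour on chromosome 8 and the form most strongly induced by receptor ligands, showed no such separation. It read 7.0264, 7.0261, 7.0265 and 7.0265 in iron-deficient livers and 7.0263, 7.0263, 7.0265 and 7.0265 in control livers. The groups overlapped, with a difference of -4.12e-05 ± 1.18e-04 (limma adjusted p = 0.941) that turned higher after median centring and without iron-deficient replicate 2. Cyp1b1, an estrogen-hydroxylating form found mostly outside the liver, had means of 6.9052 in both groups and differed by 1.68 within-group SDs (limma adjusted p = 0.499). Of the other genes controlled by the receptor, 4 of the 5 listed were measured, 3 of them with a higher mean. Nqo1, a quinone reductase, differed by 0.0127 ± 0.00415, which is 2.07 within-group SDs (limma adjusted p = 0.342). Tiparp, Aldh3a1 and the receptor repressor Ahrr had standardised differences of 0.341, 0.997 and -0.715. The means of Aldh3a1 lay below the 25th percentile of the probe sets (6.55), so it may not have been detected. Ahr itself differed by -2.67e-07 ± 7.41e-07 and its partner Arnt by -3.04e-05 ± 5.55e-05. Cyp1a1, Cyp1b1, Ahrr and Ahr had means above the 25th percentile but below the median of every array. They may not have been detected either, so their overlapping groups do not show that these transcripts were unchanged.

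Family 2, which holds the largest number of rat drug-oxidising forms, had 25 members, 8 with a higher and 17 with a lower mean in iron-deficient livers. Over all named genes 47.0% had a higher mean, and the split of each family changed with scaling, as it did for all members. Cyp2f4, which oxidises naphthalene in rat lung, read 9.72354, 9.72335, 9.72347 and 9.72305 in iron-deficient livers, against 9.72549, 9.72483, 9.72483 and 9.72465 in control livers. Every iron-deficient liver lay below every control. The difference of -0.00160 ± 2.05e-04 came to -5.28 within-group SDs (limma adjusted p = 0.0735, from 0.00418 to 0.331 over 18 alternatives). It passed after median centring (limma adjusted p = 0.00418) and with the mean of all probe sets (0.0489). Cyp2t1, for which no role is given here, read 9.32404, 9.32403, 9.32395 and 9.32370 in iron-deficient livers, and 9.32463, 9.32427, 9.32425 and 9.32424 in control livers. The groups did not overlap, and the difference was -4.16e-04 ± 1.16e-04 (limma adjusted p = 0.283).

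Cyp2f4 and Cyp2t1 adjoin each other in a run of 10 members on chromosome 1, which also holds Cyp2s1, Cyp2b3, Cyp2b21, Cyp2b12, Cyp2g1, Cyp2a3, Cyp2a1 and Cyp2a2. Neighbours here are P450 genes at most 10 protein-coding genes apart in RefSeq. Of these 10 genes 3 were higher and 7 lower, with standardised differences from -5.28 to 2.66. Cyp2a2, a testosterone hydroxylase of male rat liver, went the other way from Cyp2f4. It read 12.58076, 12.58066, 12.58065 and 12.58069 in iron-deficient livers, and 12.58055, 12.58060, 12.58047 and 12.58043 in control livers. The groups did not overlap, with a difference of 1.76e-04 ± 4.45e-05 (limma adjusted p = 0.249). It passed after quantile normalization (0.00475, limma adjusted p = 1.83e-14), and its groups had equal means where that step left Hamp aside. Cyp2s1 averaged 6.51895 in iron-deficient livers and 6.51897 in control livers, a difference of -1.84 within-group SDs with overlapping groups (limma adjusted p = 0.390). The standardised differences of Cyp2b3, Cyp2b12, Cyp2b21, Cyp2g1, Cyp2a1 and Cyp2a3 ran from -0.929 to 0.378.

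The 7 Cyp2c genes encode drug, steroid and arachidonic acid oxidising forms that make up much of rat liver P450. Cyp2c6v1, a form present in both sexes, read 13.64791, 13.64796, 13.64795 and 13.64811 in iron-deficient livers, and 13.64775, 13.64779, 13.64789 and 13.64777 in control livers. The groups did not overlap, with a difference of 1.83e-04 ± 5.07e-05 (limma adjusted p = 0.277). It also passed after quantile normalization (0.00873, limma adjusted p = 8.40e-16), and the means were equal where Hamp was left aside. The other Cyp2c genes had standardised differences from -0.589 for Cyp2c23, an arachidonic acid epoxygenase, to 1.35 for Cyp2c22.

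Among the remaining family 2 genes, Cyp2d3 was lower by its standardised value of -1.85 (limma adjusted p = 0.388), while Cyp2d2 and Cyp2d4 were at -0.654 and 0.726. Cyp2e1, which oxidises ethanol, read 14.08006, 14.08009, 14.08003 and 14.08014 in iron-deficient livers and 14.08009, 14.08010, 14.08012 and 14.08004 in control livers. The groups overlapped (difference -7.48e-06 ± 2.69e-05, limma adjusted p = 0.956). Its probe set rose under quantile normalization (0.0189, limma adjusted p = 1.29e-17), but its means were equal where that step left Hamp aside. The sign of Cyp2e1 also turned under 3 other alternatives. The 3 Cyp2j genes, whose enzymes make epoxides of arachidonic acid, had lower means and standardised differences from -1.05 to -0.0612, and Cyp2u1 was at 0.651. A second probe set of Cyp2j3 was at 0.555 and one of Cyp2d4 at 1.45.

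**Figure D2:**
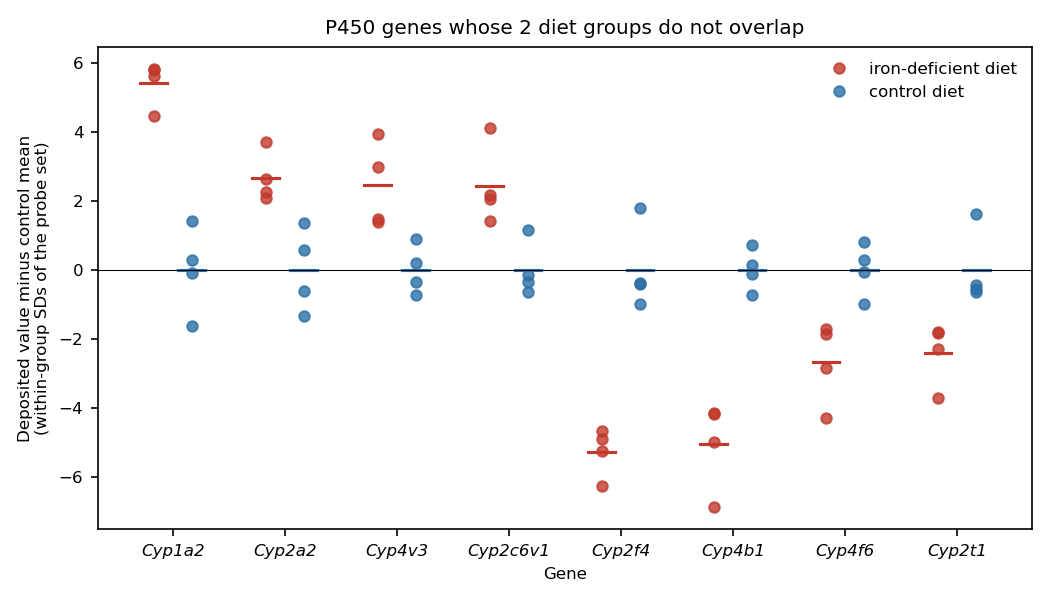
Deposited value of each array minus the control mean, in within-group SDs of the probe set, for the 8 P450 genes whose groups did not overlap. Points are single livers and short lines group means (n = 4 each), with iron-deficient livers in red and control livers in blue. Cyp1a2, Cyp2a2, Cyp4v3 and Cyp2c6v1 were higher and Cyp2f4, Cyp4b1, Cyp4f6 and Cyp2t1 lower in all 4 iron-deficient livers.

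In family 4, whose enzymes oxidise fatty acids and related lipids, 3 of 7 members had a higher and 4 a lower mean. Cyp4b1, a form best known from lung, read 7.37574, 7.37541, 7.37588 and 7.37588 in iron-deficient livers, against 7.37662, 7.37647, 7.37657 and 7.37672 in control livers. All 4 iron-deficient livers lay below the lowest control. The difference of -8.65e-04 ± 1.16e-04 came to -5.06 within-group SDs (limma adjusted p = 0.0814, from 0.00443 to 0.964 over 18 alternatives). It passed under quantile normalization with and without the Hamp probe set (limma adjusted p = 0.00443 and 0.0488).

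Cyp4f6, of a subfamily that oxidises leukotrienes and fatty acids, read 10.87201, 10.87198, 10.87201 and 10.87195 in iron-deficient livers, and 10.87203, 10.87207, 10.87205 and 10.87206 in control livers. The groups did not overlap (difference -6.22e-05 ± 1.57e-05, limma adjusted p = 0.248), but the sign turned under quantile normalization, to 1.66e-04. Its 4 neighbours on chromosome 7, Cyp4f1, Cyp4f4, Cyp4f5 and Cyp4f17, had standardised differences from -1.12 to 0.653. Cyp4v3, the rat counterpart of a human fatty acid hydroxylase gene, read 11.40896, 11.40899, 11.40890 and 11.40890 in iron-deficient livers, and 11.40888, 11.40884, 11.40883 and 11.40886 in control livers. The groups did not overlap (difference 8.43e-05 ± 2.32e-05, limma adjusted p = 0.276). After quantile normalization the Cyp4v3 difference was 0.0026 (limma adjusted p = 5.66e-13), and without Hamp in that step the means were equal. A second Cyp4v3 probe set, which was not used to represent the gene, also had non-overlapping groups, averaging 8.05518 in iron-deficient livers and 8.05463 in control livers, with a standardised difference of 3.22.

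Family 3 had 4 members, the main steroid and drug oxidising P450 enzymes by breadth of substrate, and none had separated groups. Cyp3a2, a male-predominant form, read 13.57690, 13.57687, 13.57684 and 13.57693 in iron-deficient livers and 13.57691, 13.57690, 13.57688 and 13.57682 in control livers. Cyp3a18, also a male form, read 12.5507, 12.5500, 12.5500 and 12.5509 in iron-deficient livers and 12.5504, 12.5506, 12.5505 and 12.5506 in control livers. Both overlapped, with limma adjusted p of 0.975 and 0.885. Quantile normalization gave 0.0102 for Cyp3a2, which passed (limma adjusted p = 4.03e-16), but its means were equal where that step left Hamp aside. With Hamp included, quantile normalization turned Cyp3a18 to 0.00259 (limma adjusted p = 0.427). Cyp3a23-3a1, the form induced by PXR ligands, was at -0.144 within-group SDs (limma adjusted p = 0.968). Cyp3a9, a form higher in females, read 7.23, 7.20, 7.13 and 7.53 in iron-deficient livers, and 7.16, 7.05, 7.21 and 7.04 in control livers. Its deposited difference of 0.158 ± 0.0932 had the largest absolute size of the 51, but the groups overlapped and the standardised difference was 1.14 (limma adjusted p = 0.588). Without iron-deficient replicate 4 the difference was 0.0724.

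The forms set by growth hormone pattern gave a mixed picture. Of 5 male-predominant forms 3 had a higher and 2 a lower mean, with a median standardised difference of 0.116, and Cyp2a2 alone had non-overlapping groups, at 2.66. Of 4 female-predominant forms 2 were higher and 2 lower, with a median of 0.171 and overlapping groups for each. Cyp2c11, the major male form, read 14.356 in every liver, with a within-group SD of 4.7e-08. Its difference was 3.25e-08 ± 6.92e-07, or 0.691 within-group SDs (limma adjusted p = 0.994), the SE being set mostly by the spread of other probe sets. It was 0.0511 after quantile normalization (limma adjusted p = 1.08e-19), and 0 where that step left Hamp aside. Values this invariant do not show that its transcript was unchanged, since the deposited scale is compressed. Cyp2c12, the major female form, read 10.83, 10.93, 10.86 and 10.52 in iron-deficient livers, and 10.87, 10.88, 10.66 and 10.88 in control livers. It had the widest within-group spread of the 51 on the deposited scale, and the groups overlapped (difference -0.0377 ± 0.100, limma adjusted p = 0.936). Without iron-deficient replicate 4 the difference turned to 0.0503.

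All 7 listed growth hormone signalling genes were measured. Cish, a feedback inhibitor induced by STAT5, averaged 7.289 in iron-deficient livers and 7.568 in control livers, a difference of -2.09 within-group SDs, and the groups did not overlap (limma adjusted p = 0.338). Bcl6, a repressor that opposes STAT5 at sex-dependent P450 genes in mouse liver, was at 2.06 (limma adjusted p = 0.343). Cux2, a female-biased factor of mouse liver, was at 1.92, with means below the 25th percentile of the probe sets (6.55), so it may not have been detected. Stat5b was at -1.33.

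**Figure D3:**
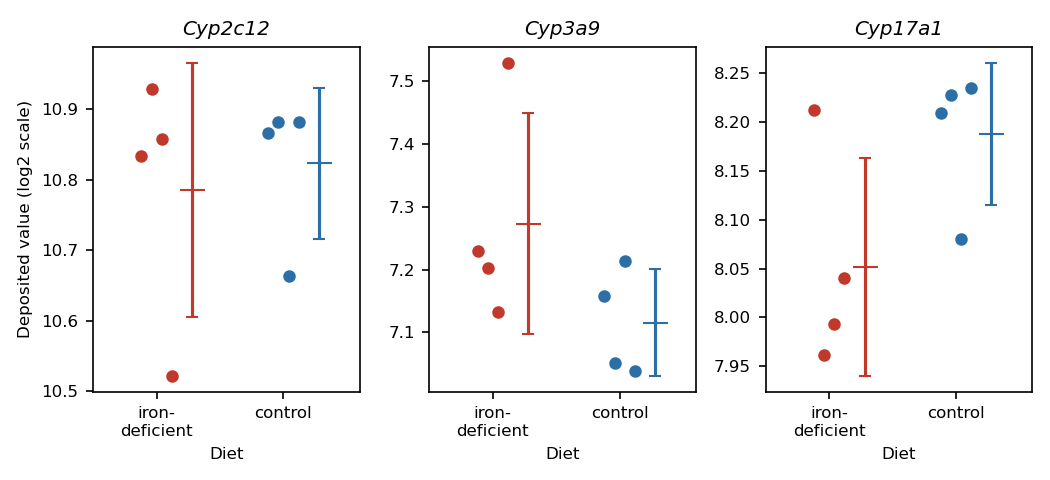
Deposited value (log2 scale) of Cyp2c12, Cyp3a9 and Cyp17a1 in each liver, as points in order of replicate number, with mean and SD beside them (n = 4 per group). The groups overlap in all 3 panels, and iron-deficient replicate 4 is the lowest liver for Cyp2c12 at 10.52 and the highest for Cyp3a9 at 7.53.

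The other families act on steroids, sterols, retinoids and vitamin D, and 5 of their 12 members had a higher and 7 a lower mean. None had an unadjusted limma p under 0.05 or separated groups. Cyp17a1, the steroid hydroxylase and lyase of androgen synthesis, read 8.21, 7.96, 7.99 and 8.04 in iron-deficient livers, and 8.21, 8.23, 8.08 and 8.24 in control livers. Of the iron-deficient livers 3 lay below the lowest control and 1 lay among the controls. The difference of -0.136 ± 0.0637 came to -1.44 within-group SDs (limma adjusted p = 0.486), and -0.190 without iron-deficient replicate 1. Cyp39a1 and Cyp46a1, enzymes of oxysterol metabolism, were at -1.35 and -1.28.

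Cyp26a1, which clears retinoic acid, read 6.72232, 6.72240, 6.72238 and 6.72234 in iron-deficient livers and 6.72230, 6.72235, 6.72234 and 6.72235 in control livers, a difference of 0.858 within-group SDs (limma adjusted p = 0.700). Its sign turned under quantile normalization. Cyp26b1, which shares that role, was at 0.849. A second Cyp26b1 probe set had non-overlapping groups, averaging 6.510 in iron-deficient livers and 6.508 in control livers, but these lie below the 25th percentile of the probe sets. Cyp7b1, an oxysterol hydroxylase, read 6.11355, 6.11357, 6.11355 and 6.11357 in iron-deficient livers and 6.11355, 6.11356, 6.11356 and 6.11356 in control livers, also below that percentile. The adrenal and gonadal enzymes Cyp11a1, Cyp11b1, Cyp21a1 and Cyp19a1, with Cyp27b1 and Cyp20a1, had standardised differences from -1.30 to 0.670. In all, 6 members had means below the 25th percentile, namely Cyp2b12, Cyp2b21, Cyp2s1, Cyp11b1, Cyp21a1 and Cyp7b1.

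Genes that serve the P450 enzymes were read from the same fit. Of 7 listed redox partners 6 were measured, 2 with a higher and 4 with a lower mean, and none had an unadjusted limma p under 0.05. Cyb5a, cytochrome b5, was at -1.56, Fdx1, the mitochondrial ferredoxin, at -0.882, Cyb5r3 at 0.698 and Cyb5b at 0.617, while the reductase Por was at -0.432. Of 12 listed transcriptional regulators 11 were measured, 3 higher and 8 lower. Nr0b2, a repressor of other nuclear receptors, differed by 0.0664 ± 0.0101, or 4.45 within-group SDs, with non-overlapping groups (limma adjusted p = 0.112). Onecut1 was at -0.895, Hnf4a at -0.800 and Ahr at -0.680, and the receptors Nr1i2 and Nr1i3 were at -0.154 and -0.405.

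Heme for the P450 enzymes is made by a pathway that begins with Alas1. Of 12 listed heme supply genes 11 were measured, 5 higher and 6 lower, and none passed. Cpox, coproporphyrinogen oxidase, was at 3.89 and Hmox2, a constitutive heme oxygenase, at -2.30, both with non-overlapping groups (limma adjusted p = 0.137 and 0.304). Uros was at -1.79 and Alas1 at -1.58, and Alas1 averaged 11.666 in iron-deficient livers and 11.672 in control livers (limma adjusted p = 0.452). Of the listed genes named with a value from the signalling, regulator, redox and heme lists, Nqo1, Cish, Bcl6, Cux2, Cyb5b, Nr0b2, Onecut1, Nr1i3 and Alas1 kept their direction under all 3 scalings, and the others turned or vanished under at least 1.

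**Figure D4:**
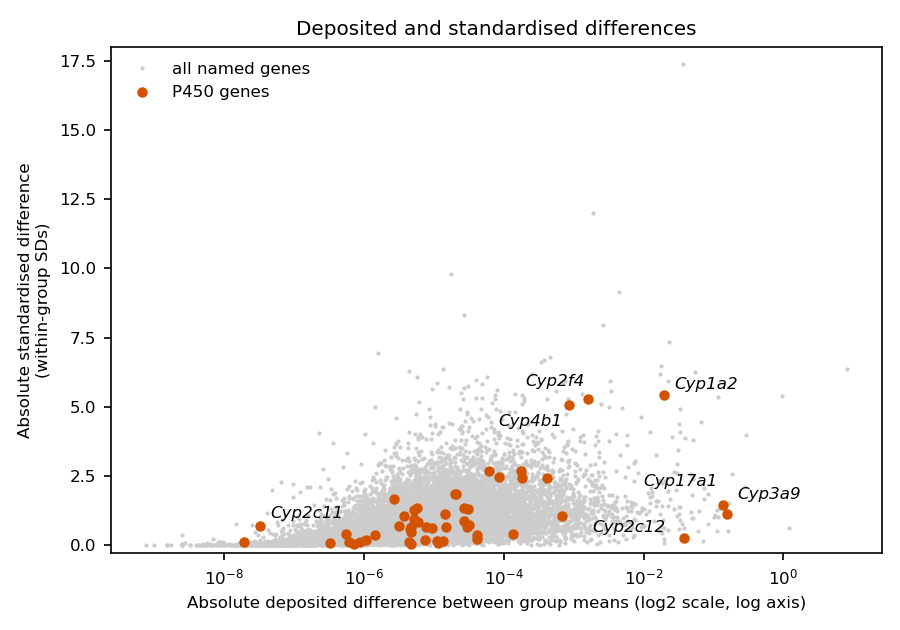
Absolute deposited difference between group means (log2 scale, log axis) against the absolute standardised difference (within-group SDs). The 14217 named genes, except those with equal group means, are in grey and the 51 P450 genes in orange. Cyp3a9, Cyp17a1 and Cyp2c12 differ most on the deposited scale (0.158, -0.136 and -0.0377 with their signs) but by only 1.14, -1.44 and -0.254 within-group SDs, whereas Cyp2f4 and Cyp4b1 differ by -5.28 and -5.06.

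In the same arrays the summed markers of 3 other liver cell types did not overlap between the diets, although no single one of these markers passed the adjusted limma test. Over all named genes, 47.0% had a higher mean in iron-deficient livers and 3.42% were higher with groups that did not overlap. The summed level of 6 endothelial markers was 54.5052 to 54.5074 in iron-deficient and 54.5008 to 54.5020 in control livers, with 5 of 6 higher and 4 without overlap. Flt1 and Stab2 differed by 0.00246 and 0.00225, and the other 4 by at most 4.21e-04. For 6 stellate cell markers it was 50.7469 to 50.7503 in iron-deficient and 50.7421 to 50.7445 in control livers, with 4 of 6 higher and 3 without overlap. Dcn and Col3a1 differed by 0.00276 and 0.00199, and the other 4 by at most 4.48e-04. For 5 Kupffer cell markers it was 49.6245 to 49.6305 in iron-deficient and 49.6206 to 49.6234 in control livers, with 5 of 5 higher and 2 without overlap. That sum rests mostly on Lyz2, which differed by 0.00597, where the other 4 differed by at most 1.66e-04. Where quantile normalization left Hamp aside, Cd68 and Csf1r turned lower (-6.95e-05 and -1.72e-04) and Clec4f had equal means. Lyz2 and Mrc1 kept their direction under all 3 scalings, as did Egfl7, Flt1, Lyve1, Pecam1, Stab2, Col3a1, Dcn and Lrat. Among the endothelial and stellate cell markers, Kdr, Col1a1, Des and Reln turned or vanished under at least 1 scaling. The hepatocyte sum overlapped, at 70.7177 to 70.7180 in iron-deficient and 70.7178 to 70.7179 in control livers, with 2 of 5 higher. Serpina1, a secreted protease inhibitor gene, had non-overlapping groups at 4.05 within-group SDs, with a difference of 2.25e-07. Its limma SE of 6.93e-07 (limma adjusted p = 0.946) was set mostly by the spread of other probe sets and exceeded its own SD. The sums of cholangiocyte and red cell precursor markers overlapped as well, with 1 of 3 and 2 of 3 higher. No marker was at 0, since the scale has no zero. The part of these markers in the P450 differences was not tested, and in whole liver a change in the number of cells of a type and a change in RNA per cell cannot be told apart. The actin control probes were read as a rough sign of RNA integrity. Their 3' value exceeded the 5' value by 1.40738 ± 7.95e-04 in iron-deficient livers and by 1.40846 ± 8.89e-04 in control livers (SD, 4 arrays each). The difference gave p = 0.114 in a two-sided exact permutation test. For Gapdh the iron-deficient livers gave 1.16963 ± 3.44e-05 by the same measure and the control livers 1.16974 ± 8.63e-05, with an exact permutation p of 0.0571. With 4 against 4 arrays the smallest p this permutation test can give is 0.0286. Each gap lies between probe sets that may be compressed unequally, so its size does not measure RNA integrity. The part of RNA integrity in the P450 differences was not tested.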

How the data were processed

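Per the labels' protocols, 2 ug of total liver RNA gave biotin-labelled cRNA for Affymetrix arrays. The authors' deposited values, 1 for each array and probe set, are on a log2 scale, as judged from the values. Their probe summary and normalization are not given in the sources used here. Of 31099 probe sets, 57 controls were left out. Genes were paired through the platform annotation, which gave 1 symbol for 20826 probe sets, several for 436 and none for 9780, and updating symbols through gene identifiers changed no member. The comparison was iron-deficient minus control over 4 and 4 arrays, fitted by limma (version 3.58.1, lmFit then eBayes, under R 4.3.3) with no block and with Benjamini-Hochberg adjustment over 31042 probe sets and a threshold of 0.05. The number of arrays limits the precision. Paralogous P450 genes are alike in sequence, so probe sets of the Cyp2a, Cyp2b, Cyp2c, Cyp2d and Cyp3a genes may read related transcripts. Counts of members are set beside the same counts over all named genes, and no set test was run. The members, the gene lists and the rule for naming genes were chosen with earlier results of these data known. The rule gave every array's value for up to 10 members per direction whose groups did not overlap and for 13 measured forms that were always named, which came to 18 members, and up to 4 genes from each list by absolute standardised difference. Other list members are named by role, and were chosen after their values were seen. The fit was tested on simulated data. Motif searches and figures used Python 3.11.15. Alternatives were 3 scalings, 2 variance models, a filter leaving out the lowest 25% of probe sets, a replicate block, each array left out, and other ways of representing a gene.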

Additional observations from a re-analysis of the deposited data

Results flagged for a closer look

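Among 36 groups of 4 arrays, for the 18 members given array by array, 4 held an array whose gap to the nearest other exceeded Dixon's critical share of the group's range, which chance gives in about 1 of 20 groups. In iron-deficient livers, replicate 2 was the lowest for Cyp1a2, at 11.6195, with a gap of 0.842 of the range, and the difference without it was 0.0206. In control livers, replicate 1 was the highest for Cyp2t1, at 9.32463, with a gap of 0.913, and the difference without it was -3.22e-04. Control replicate 3 was the lowest for both Cyp2c12, at 10.66 with a gap of 0.928, and Cyp17a1, at 8.08 with a gap of 0.832. Without that liver the differences were -0.0911 and -0.172.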

How the results depend on the processing

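The count of members past the adjusted limma threshold was 0 in 14 of 18 alternatives. It was 18 after quantile normalization, 2 where that step left Hamp aside (Cyp1a2 and Cyp4b1), 2 after median centring (Cyp1a2 and Cyp2f4) and 2 with all probe sets of a gene averaged (Cyp1a2 and Cyp2f4), where 5.47%, 0.366%, 0.267% and 0.309% of all named genes passed. Hamp reads highest of all probe sets in control arrays and not in iron-deficient ones, so quantile normalization lifts the bright probe sets of iron-deficient arrays. At an unadjusted limma p under 0.05, and also by groups that do not overlap, 18 members were higher and 2 lower after quantile normalization, where 7.29% and 1.39% of all named genes did not overlap. Without the Hamp probe set 1 was higher and 2 lower by both measures, where 1.10% and 2.09% of all named genes did not overlap, with 5 members in all having a higher mean. After median centring 43 had a higher and 8 a lower mean, 1 was higher and 3 lower at an unadjusted limma p under 0.05, and by groups that do not overlap the numbers were also 1 and 3, where 0.528% and 0.197% of all named genes did not overlap. Among the 18 members given array by array, signs turned under quantile normalization for Cyp4f6 (1.66e-04), Cyp2e1 (0.0189), Cyp3a18 (0.00259) and Cyp26a1 (-6.53e-05, also without the Hamp probe set), and under median centring for Cyp1a1 (9.40e-06) and Cyp2e1 (4.31e-05). With each array left out, no member passed, and 4 to 5 members were higher and 4 to 7 lower without overlap. The 7 were without iron-deficient replicate 1, where 7.15% of all named genes were lower without overlap. Over the settings with 1 array left out, 4.33% to 5.99% of all named genes were higher and 5.51% to 7.68% lower without overlap. The difference then ran from -9.37e-05 to 5.90e-05 for Cyp1a1, from -0.0911 to 0.0503 for Cyp2c12, from -2.63e-05 to 9.46e-06 for Cyp2e1, from -1.37e-05 to 1.86e-05 for Cyp3a2, from -3.06e-04 to 1.09e-06 for Cyp3a18 and from -2.97e-06 to 3.94e-06 for Cyp7b1. The other 12 members given array by array kept their sign whichever array was left out. The cause of these changes was not tested beyond the construction given for quantile normalization. With the replicate number as a block no member passed, and 4 were higher and 6 lower at an unadjusted limma p under 0.05. The share of all named genes at that unadjusted threshold was counted under the main setting only, so these counts have no background under the alternatives. Same-numbered arrays of the groups correlated at -0.111 to 0.0245 in their deviations from the group means. Of the 4 iron-deficient arrays, 1 correlated best with its own number. These correlations gave no sign that the numbers pair the livers, but with 4 arrays per group they cannot exclude it. Leaving out the lowest 25% of probe sets removed 6 members and left 0 called.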
